A study of Rattus norvegicus with 12 samples.

Results

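The genes described here encode hydrolases, membrane proteins and proton pump subunits of the lysosome, together with the transcription factor Tfeb, and were chosen as a list of 44 rat gene symbols. Probes were assigned to them through their RefSeq accessions, and Gusb and Grn, which had 2 probes each, are represented by the brighter one. Of the 44 genes 38 had a named probe on the array, among 13903 genes with one, and all 38 were tested among 12353 tested genes. Ctsz, Lamp1, Npc1, Atp6v1e1, Atp6ap2 and Sgsh had no named probe and were not analysed here. In 37 of the 38 the probe was well above background on all 12 arrays, and that of Glb1 was so on 9 of 12. The list held 9 measured cathepsins and other proteases, 8 glycosidases and sulfatases, 6 genes of lipid handling, 5 genes for membrane proteins and progranulin, 9 proton pump genes and 1 regulator.

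RNA came from veins of male rats and was hybridised to 12 single-colour Agilent arrays, 3 for each day. Unoperated rats supplied the day 0 veins, and the others were external jugular veins that had been grafted into the carotid artery 7, 14 or 28 days before. The labels give neither strain nor age, do not name the day 0 vein, and do not say that each array held a separate animal, so the spread behind the p-values is that of these samples and may be technical. The number of arrays limits the precision. Between 71.9% and 82.6% of the gene spots of an array were well above background. Correlations between replicates, across probes, were lowest at day 0 (0.910 to 0.963) and were 0.938 to 0.994 at day 7, 0.979 to 0.993 at day 14 and 0.976 to 0.991 at day 28. Non-uniform spots numbered 460 on day 0 replicate 3 and 393 on day 7 replicate 3, against 2 to 11 on the other arrays.

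Lysosomes are acidic organelles in which proteins, glycans and lipids delivered by endocytosis, phagocytosis and autophagy are broken down. Their acidity is kept by the V-type ATPase, whose V1 sector in the cytosol hydrolyses ATP and whose V0 sector carries protons across the membrane. Tfeb and its relatives bind a palindromic element, known as CLEAR, in the promoters of many lysosomal genes. Macrophages are rich in lysosomes, and a vein exposed to arterial flow is known to take up macrophages while its wall thickens.

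Levels below are log2 intensities set to 0 at the 75th percentile of each array, so each unit is a doubling, and levels of different probes cannot be set against each other. Values of a day are given in the order of replicates 1, 2 and 3. Differences are graft day minus day 0 on this log2 scale, with the standard error (SE) of the limma fit, and p-values were adjusted over 21063 tested probes by the Benjamini-Hochberg method. A gene is called where its adjusted p was under 0.05.

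Most of the measured lysosomal genes were called higher in the graft than in the unoperated vein at each day. At day 7, 24 of the 38 were called higher, 0 lower and 14 not called, where 17.7% of all tested probes were called higher and 15.4% lower. At day 14 the count was 26 higher, 0 lower and 12 not called, against 20.1% of all probes higher and 17.4% lower. At day 28 it was 22 higher, 0 lower and 16 not called, against 17.4% of all probes higher and 16.5% lower. Without day 28 replicate 1 the day 28 count was 14 higher, against 11.5% of all probes higher. The median difference of the 38 genes was 0.83 at day 7, 1.12 at day 14 and 0.78 at day 28, and that of all tested probes was -0.03, 0.02 and 0.01. The 3 graft arrays all lay above the 3 day 0 arrays for 24 genes at day 7 (19.8% of all probes), 29 at day 14 (25.9%) and 27 at day 28 (23.9%). They all lay below for 0 genes at day 7 (20.1% of all probes), 0 at day 14 (25.2%) and 1, Tfeb, at day 28 (24.4%). At all 3 graft days 20 genes were called, against 11.4% of all probes, 9 genes were called at 1 or 2 of them and 9 at none.

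The size of the rise differed between roles. Median differences at days 7, 14 and 28 were 1.33, 1.99 and 1.12 for proteases, 1.02, 1.20 and 1.09 for glycosidases and sulfatases, and 1.80, 1.73 and 1.52 for lipid handling. They were 0.64, 0.87 and 0.65 for membrane proteins and progranulin, and 0.48, 0.69 and 0.43 for the pump. The differences between roles were not tested. Most genes stood highest at day 14 among the graft days, 24 of 38, where 39.6% of all probes did, and 8 stood highest at day 28 (33.1% of probes) and 6 at day 7 (27.3%).

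**Figure D1:**
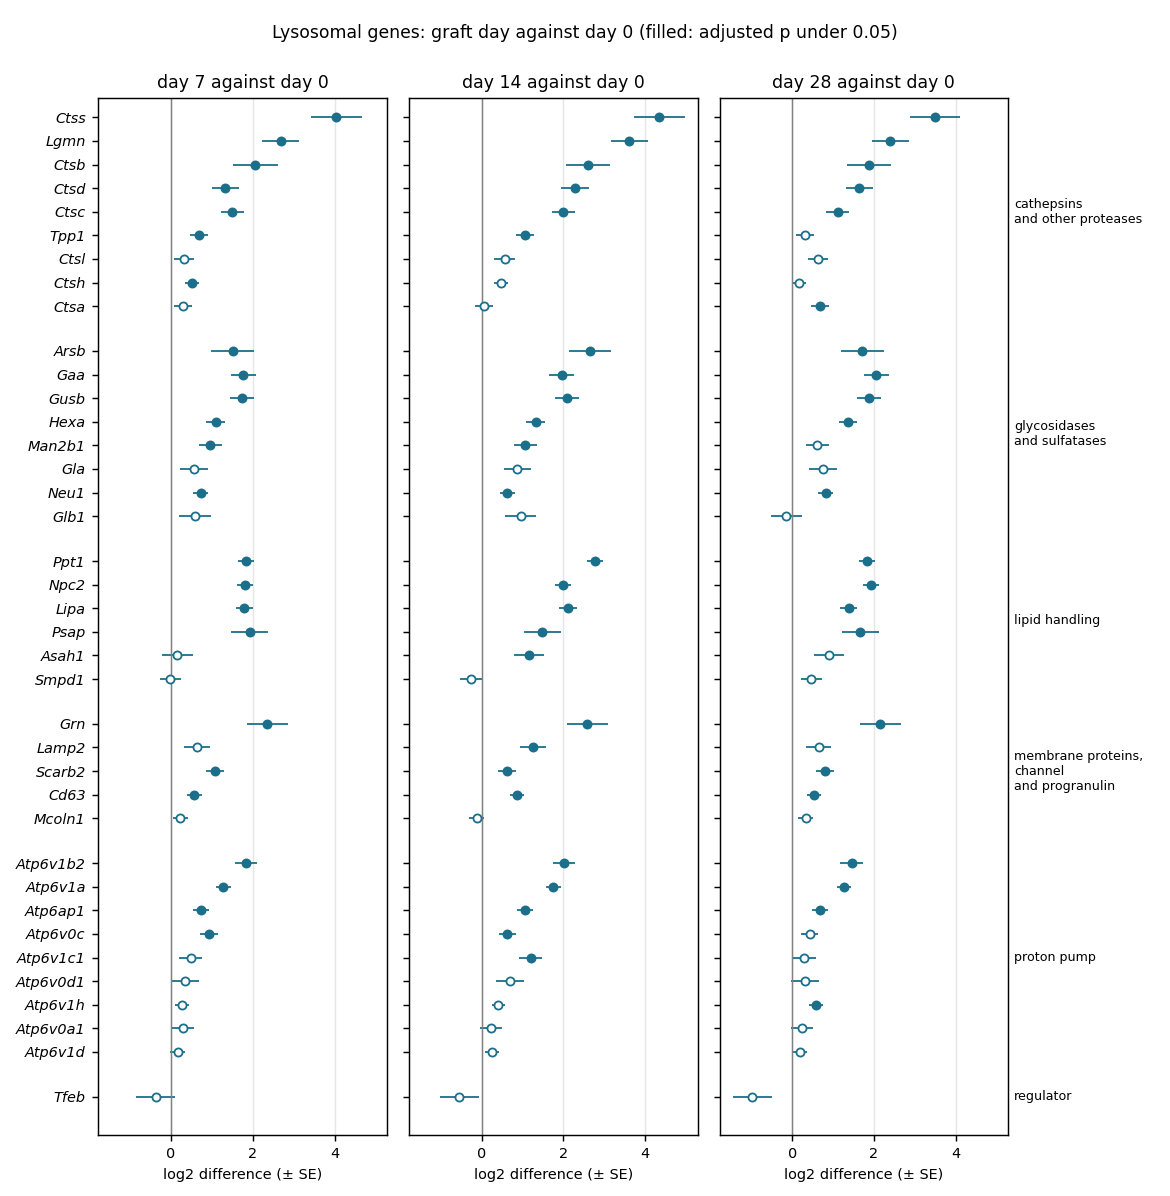
Log2 difference between each graft day and day 0 (points, with bars of 1 SE, 3 arrays a day) for the 38 lysosomal genes, grouped by role, with filled points for adjusted p under 0.05. Every filled point lies to the right of 0, with Ctss at 4.05, 4.35 and 3.49 the farthest, while Tfeb lies to the left at all 3 days with open points.

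The day 0 arrays were the least alike. Over the 38 genes the median level on the day 0 arrays was 2.81, 2.32 and 1.59, and it lay between 3.09 and 3.59 at day 7, between 3.41 and 3.52 at day 14 and between 3.14 and 3.18 at day 28. The median of the within-day SDs was 0.48 at day 0, 0.26 at day 7, 0.11 at day 14 and 0.10 at day 28. Day 0 replicate 1 was the highest day 0 array for 27 of the 38 genes, and replicate 3 the lowest for 22. Day 7 replicate 3 was the highest day 7 array for 24 genes.

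Arrays that shared a scan time are here called a slide. There were 4, of which 1 held day 0 replicate 3 alone. By the file headers that array lay at position 4, and the slide of the other day 0 arrays had positions 1 to 3 filled. The remaining slides had positions 1 to 4 filled. Day 0 replicate 3 may therefore belong to the slide of the other day 0 arrays and have been scanned apart. In either case no slide held day 7 or day 14 together with day 0. On the slide that held both, day 28 replicate 3 stood 0.82 above day 0 replicates 1 and 2 in the median of the 38 genes, with 36 of 38 differences positive, and all tested probes had a median of -0.04 there. With the slide as a fixed block the median differences were 0.94, 1.22 and 0.82 at days 7, 14 and 28, and the calls came to 0, 6 and 4. In this fit day 0 replicate 3, alone on its slide, carried no weight in these differences. Each difference from day 0 ran through day 28 replicate 3 against day 0 replicates 1 and 2. The day 28 values are therefore those of the shared slide, given a second time. The genes still called were Ctsd, Lgmn, Lipa, Npc2, Ppt1 and Atp6v1a at day 14 and Ctsd, Gaa, Npc2 and Ppt1 at day 28. Of all probes 0.261%, 4.91% and 6.47% were then called, and 0.171%, 3% and 3.49% were called higher, as all called lysosomal genes were. In a fit added after the data were seen, day 0 replicate 3 was joined to the slide of the other day 0 arrays. The medians were then 1.15, 1.31 and 0.92 and the calls 0, 4 and 4, all higher, against 0.0807%, 2.39% and 3.83% of all probes higher. Day 28 replicate 3 was again the only graft array on a slide with day 0.

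Macrophage markers were also higher in the graft. Of 17 listed markers 16 were measured. Of these 14 were called higher at day 7, 15 at day 14 and 13 at day 28, and 0 were called lower. The shares of all probes called higher were 17.7%, 20.1% and 17.4%. Their summed linear level was 30.6 to 144 on the day 0 arrays, 370 to 689 at day 7, 601 to 715 at day 14 and 325 to 462 at day 28. Day 0 replicate 1 was the highest day 0 array for 13 of the 16. That array also had the highest day 0 median for the T and NK cell (-1.37, -2.54 and -3.10), neutrophil (-2.18, -2.75 and -2.90), endothelial (3.01, 2.54 and 1.61) and adipocyte lists (2.18, 1.52 and 1.31). It did not for the smooth muscle, fibroblast and skeletal muscle lists. Trem2, a lipid receptor of macrophages, rose by 4.72, 5.87 and 5.04 (SE 0.41; adjusted p from 7.46e-06 to 3.41e-05), and Itgam, an integrin of myeloid cells, rose by 6.44, 6.38 and 5.17 (SE 0.45; adjusted p from 7.36e-06 to 4.71e-05) and was well above background on 2 of 3 day 0 arrays. Cd163, a scavenger receptor of resident macrophages, was well above background on 0 of 3 arrays at day 0, 1 at day 7, 0 at day 14 and 2 at day 28 and was not called at any day. In bulk tissue a change in the number of cells of a type and a change in the RNA per cell cannot be told apart, and the part of cell numbers in the lysosomal rise was not tested.

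Other cell markers moved too, where 17.4% to 20.1% of all probes were called higher and 15.4% to 17.4% lower. All 8 measured smooth muscle markers fell at days 7 and 14 and 7 of 8 at day 28, with a summed level of 1051 to 1619 at day 0, 170 to 299 at day 7, 131 to 215 at day 14 and 243 to 281 at day 28. Endothelial markers fell in 4 of 6 at days 7 and 14, while at day 28 2 fell and 1 rose, and adipocyte markers in 4, 5 and 4 of 7. T and NK cell markers rose in 7, 8 and 5 of 10, fibroblast markers in 4, 4 and 2 of 5 with 1 lower at day 14, and neutrophil markers in 3, 2 and 0 of 4. Skeletal muscle markers rose in 0, 6 and 8 of 9. Their part in the lysosomal values was not tested.

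**Figure D2:**
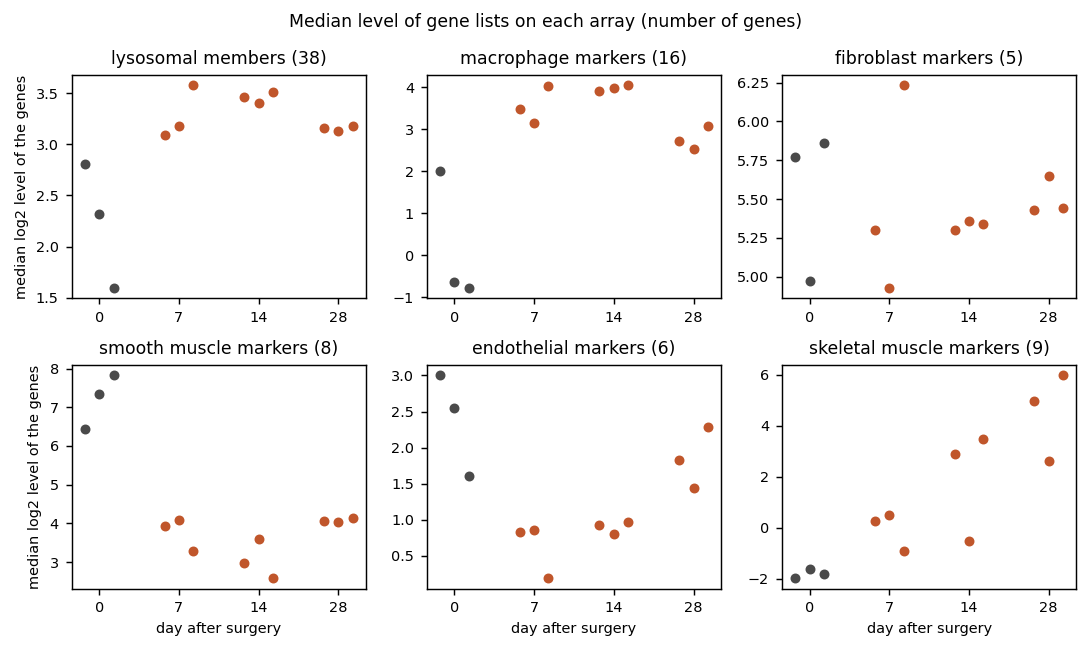
Median log2 level of the genes of 6 lists on each of the 12 arrays (points; grey for day 0, orange for graft days; number of measured genes in each title). In both the lysosomal and the macrophage panels the day 0 arrays lie lowest, with day 0 replicate 1 above the other day 0 arrays. Day 14 lies at 3.41 to 3.52 for the lysosomal genes. At day 28 the macrophage medians (2.53 to 3.08) lie below those of day 7 (3.15 to 4.04). The lysosomal medians of day 28 (3.14 to 3.18) lie within the day 7 range (3.09 to 3.59).

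Promoter windows were examined because Tfeb-type elements are known in lysosomal promoters. Of the 44 genes 35 had a window of 300 bases, running from 250 bases before to 50 bases after the annotated start, in RefSeq on the GRCr8 assembly. The 8-letter element GTCACGTG, which holds most of the CLEAR palindrome and was searched on both strands, was present in 7 of 35 windows (20%), against 1.85% of 33469 windows of all genes. The whole 10-letter palindrome, which adds AC to the end of it, was found in 0 of 35 and in 0.233% of all windows. The shorter E-box CACGTG, which lies inside both, was present in 8 of 35 windows and in 6.42% of all. Of the 7 genes with the 8-letter element 5 were measured: Ctsd and Gaa were called at all 3 graft days, and Glb1, Mcoln1 and Atp6v0d1 at none. Of the 24 measured genes whose window lacked it 12 were called at all 3 days. A match here describes letters and is no evidence of binding. The 5 windows that hold the element are printed with it in capitals, followed by those of Ctss and Lgmn, whose rises were the largest. In Ctss the capitals mark GAGGAAGT read on the other strand, a form of the site of the myeloid factor PU.1, which 3 of 35 windows and 2.42% of all windows held. Lgmn held none of these elements.
Ctsd (chr1:206968772-206969071, minus strand): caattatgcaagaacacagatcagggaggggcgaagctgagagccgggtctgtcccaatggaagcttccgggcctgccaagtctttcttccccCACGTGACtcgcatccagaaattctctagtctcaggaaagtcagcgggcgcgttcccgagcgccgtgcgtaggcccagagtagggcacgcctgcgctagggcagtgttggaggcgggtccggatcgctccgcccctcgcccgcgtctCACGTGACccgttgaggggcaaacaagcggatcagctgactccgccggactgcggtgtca
Gaa (chr10:105028105-105028404, plus strand): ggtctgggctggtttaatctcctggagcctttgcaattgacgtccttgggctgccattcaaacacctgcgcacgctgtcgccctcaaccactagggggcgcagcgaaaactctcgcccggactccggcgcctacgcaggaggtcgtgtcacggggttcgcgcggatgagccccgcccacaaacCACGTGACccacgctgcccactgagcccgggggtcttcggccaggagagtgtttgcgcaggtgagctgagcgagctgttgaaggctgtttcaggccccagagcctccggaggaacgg
Glb1 (chr8:122963468-122963767, plus strand): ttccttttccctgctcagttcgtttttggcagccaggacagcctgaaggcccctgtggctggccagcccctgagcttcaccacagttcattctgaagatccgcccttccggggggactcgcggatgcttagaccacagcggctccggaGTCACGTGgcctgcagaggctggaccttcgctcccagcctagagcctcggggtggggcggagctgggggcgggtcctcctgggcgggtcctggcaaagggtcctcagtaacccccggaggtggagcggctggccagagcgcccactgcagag
Mcoln1 (chr12:6358008-6358307, plus strand): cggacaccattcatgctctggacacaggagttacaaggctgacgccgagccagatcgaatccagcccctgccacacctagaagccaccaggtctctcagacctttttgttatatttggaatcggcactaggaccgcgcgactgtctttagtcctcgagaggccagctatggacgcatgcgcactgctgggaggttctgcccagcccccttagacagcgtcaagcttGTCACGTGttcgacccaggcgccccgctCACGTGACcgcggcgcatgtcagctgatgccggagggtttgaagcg
Atp6v0d1 (chr19:50357199-50357498, minus strand): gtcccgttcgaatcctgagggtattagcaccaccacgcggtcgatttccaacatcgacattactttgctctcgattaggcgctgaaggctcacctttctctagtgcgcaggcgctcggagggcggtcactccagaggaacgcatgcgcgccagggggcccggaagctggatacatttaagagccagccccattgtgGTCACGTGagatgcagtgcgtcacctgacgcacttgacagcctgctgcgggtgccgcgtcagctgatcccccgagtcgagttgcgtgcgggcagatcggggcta
Ctss (chr2:185775146-185775445, plus strand): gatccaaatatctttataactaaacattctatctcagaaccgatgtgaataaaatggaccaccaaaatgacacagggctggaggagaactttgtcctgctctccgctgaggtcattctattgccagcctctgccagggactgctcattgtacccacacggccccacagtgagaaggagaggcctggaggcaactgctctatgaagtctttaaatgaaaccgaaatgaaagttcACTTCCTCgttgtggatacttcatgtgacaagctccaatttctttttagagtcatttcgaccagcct
Lgmn (chr6:127347279-127347578, minus strand): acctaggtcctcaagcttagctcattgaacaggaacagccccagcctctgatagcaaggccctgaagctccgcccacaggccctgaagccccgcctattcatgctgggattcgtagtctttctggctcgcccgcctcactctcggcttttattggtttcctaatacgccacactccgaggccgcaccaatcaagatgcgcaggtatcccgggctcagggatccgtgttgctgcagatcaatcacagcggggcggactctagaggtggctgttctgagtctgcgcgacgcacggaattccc

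With bases counted from the start and negative before it, the element began at -157 and -10 in the Ctsd window, at -67 in Gaa, at -102 in Glb1 and at -54 in Atp6v0d1. In Mcoln1 one copy began at -24 and another at 5.

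The largest rises among the 38 genes were in proteases. Of 9 measured, 7 were called higher at day 7 (17.7% of all probes), 6 at day 14 (20.1%) and 6 at day 28 (17.4%). At all 3 days 5 were called (11.4% of all probes). Ctss encodes cathepsin S, the protease that trims the invariant chain for antigen presentation. Ctss had levels of 4.18, 1.59 and 1.29 at day 0, 6.32, 5.98 and 6.90 at day 7, 6.65, 6.63 and 6.84 at day 14 and 5.83, 5.61 and 6.10 at day 28. All 9 graft arrays lay above the 3 day 0 arrays, of which replicate 1 was the highest. Ctss rose by 4.05, 4.35 and 3.49 at days 7, 14 and 28 (SE 0.62; adjusted p = 0.000866, 0.000432 and 0.00218), or 16.5, 20.4 and 11.3-fold. Lgmn encodes legumain, an endopeptidase that cuts after asparagine and activates cathepsins. Lgmn had levels of 3.76, 2.55 and 1.82 at day 0, 5.36, 4.84 and 5.97 at day 7, 6.32, 6.18 and 6.48 at day 14 and 5.06, 4.80 and 5.47 at day 28. The graft arrays stood clear of day 0, with the day 14 arrays the highest. Lgmn rose by 2.68, 3.62 and 2.40 at days 7, 14 and 28 (SE 0.45; adjusted p = 0.00143, 0.000193 and 0.00288).

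Ctsb and Ctsd encode the abundant cysteine and aspartyl cathepsins. Ctsb had levels of 6.59, 5.21 and 3.81 at day 0, 7.27, 6.92 and 7.63 at day 7, 7.81, 7.77 and 7.85 at day 14 and 7.13, 6.83 and 7.31 at day 28. The day 0 arrays spanned a wide range and still lay below every graft array. Ctsb rose by 2.07, 2.60 and 1.88 at days 7, 14 and 28 (SE 0.54; adjusted p = 0.0144, 0.00387 and 0.0221). Without day 0 replicate 3 the difference was 1.37 at day 7 and 1.18 at day 28, both still called. Its call at day 28 was lost without day 0 replicate 2 or day 28 replicate 1 or 3 (adjusted p = 0.0513 to 0.0659). Ctsd had levels of 4.47, 4.33 and 3.16 at day 0, 5.64, 5.35 and 4.96 at day 7, 6.32, 6.10 and 6.39 at day 14 and 5.64, 5.30 and 5.96 at day 28. The groups did not overlap, and day 14 was highest. Ctsd rose by 1.33, 2.29 and 1.65 at days 7, 14 and 28 (SE 0.34; adjusted p = 0.0134, 0.000603 and 0.00502). Its call at day 7 was lost without day 7 replicate 1 (1.17, adjusted p = 0.0558). Ctsc encodes cathepsin C, which activates the serine proteases of granules. Ctsc had levels of 0.81, 0.29 and 0.61 at day 0, 1.77, 1.76 and 2.67 at day 7, 2.64, 2.28 and 2.77 at day 14 and 1.71, 1.40 and 1.94 at day 28, with every graft array above day 0. Ctsc rose by 1.50, 1.99 and 1.12 at days 7, 14 and 28 (SE 0.28; adjusted p = 0.00273, 0.000421 and 0.0125).

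The other proteases moved less. Tpp1, tripeptidyl peptidase, rose by 0.68 ± 0.22 at day 7 (adjusted p = 0.0383) and 1.06 ± 0.22 at day 14 (adjusted p = 0.00398) and was not called at day 28 (0.30). The day 7 call was lost without any single array other than day 0 replicate 1 and day 7 replicate 2 (adjusted p = 0.0532 to 0.0784). Ctsh, an aminopeptidase among the cathepsins, was called at day 7 (0.51 ± 0.17, adjusted p = 0.0418) and had differences of 0.47 at day 14 (adjusted p = 0.0501) and 0.16 at day 28. The call was lost without any single array other than day 0 replicate 1 and 3, day 7 replicate 3 and day 14 replicate 2 and 3 (adjusted p = 0.057 to 0.132). Ctsl, cathepsin L, had differences of 0.31, 0.56 and 0.63 and was not called. Ctsa, the protective protein of beta-galactosidase and neuraminidase, had the smallest mean difference of the group. Ctsa had levels of 5.07, 4.39 and 4.61 at day 0, 4.93, 5.35 and 4.67 at day 7, 4.82, 4.65 and 4.77 at day 14 and 5.41, 5.36 and 5.36 at day 28. Its day 7 and day 14 arrays overlapped day 0 and its day 28 arrays lay above it. Ctsa rose by 0.69 ± 0.22 at day 28 (adjusted p = 0.0352), a call lost without any single array other than day 0 replicate 1, day 7 replicate 2 and 3 and day 14 replicate 2 (adjusted p = 0.0521 to 0.104), and had differences of 0.29 and 0.06 at days 7 and 14.

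**Figure D3:**
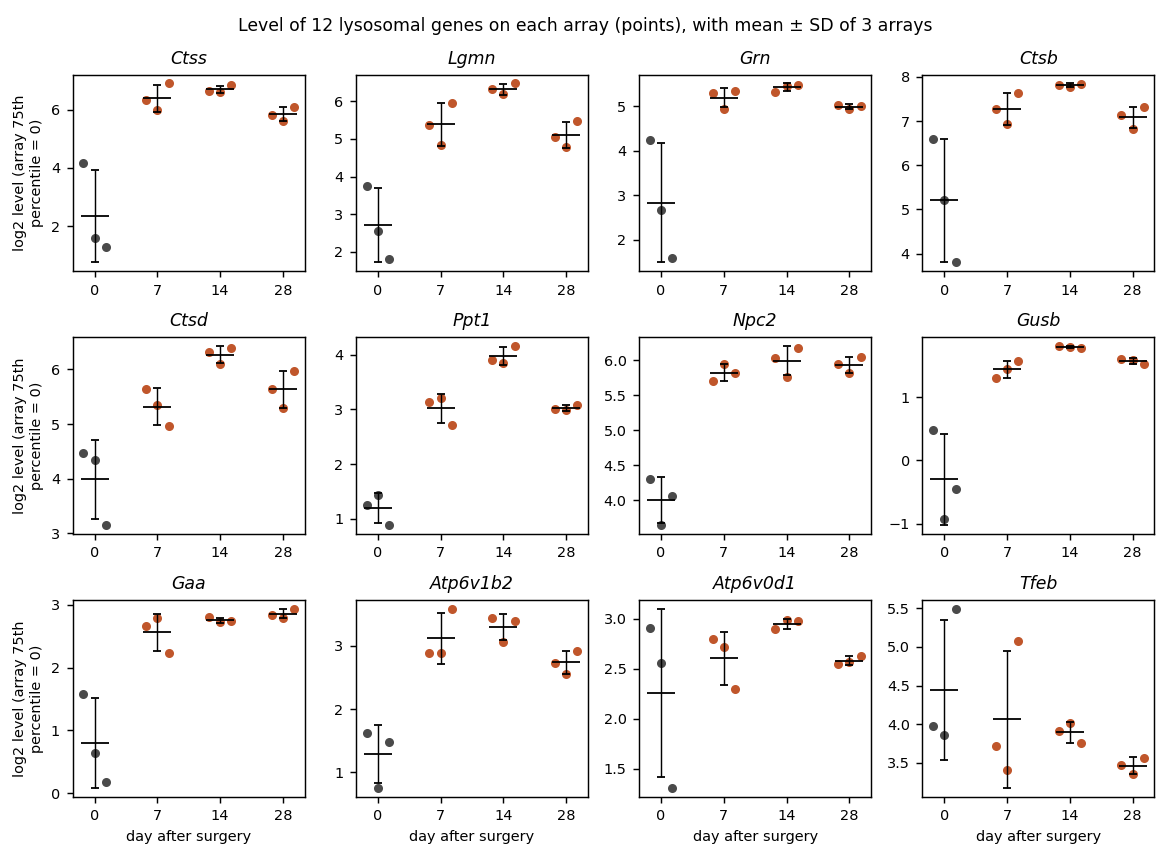
Log2 level (75th percentile of each array = 0) of 12 lysosomal genes on each array (points; grey for day 0, orange for graft days), with the mean and SD of the 3 arrays of a day; each panel has its own axis. In 10 of the panels the graft arrays lie above all day 0 arrays, while those of Atp6v0d1 and Tfeb overlap day 0 at days 7 and 14.

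Enzymes that degrade sugars and sulfated glycans rose in 6 of 8 measured genes at day 7 (17.7% of all probes), 6 at day 14 (20.1%) and 5 at day 28 (17.4%). Of the 8, 5 were called at all 3 days (11.4% of all probes). Gusb, the beta-glucuronidase often used as a marker of lysosomal enzyme, had levels of 0.49, -0.93 and -0.46 at day 0, 1.31, 1.45 and 1.57 at day 7, 1.81, 1.80 and 1.79 at day 14 and 1.61, 1.59 and 1.52 at day 28. No graft array overlapped day 0. Gusb rose by 1.74, 2.10 and 1.87 at days 7, 14 and 28 (SE 0.29; adjusted p = 0.00152, 0.000404 and 0.00125), and its second probe gave 1.71, 2.08 and 1.82. Gaa encodes the acid alpha-glucosidase that degrades glycogen and carries the promoter element shown above. Gaa had levels of 1.58, 0.63 and 0.18 at day 0, 2.66, 2.79 and 2.23 at day 7, 2.80, 2.73 and 2.74 at day 14 and 2.85, 2.79 and 2.93 at day 28. The groups were apart, with day 0 replicate 1 nearest the graft arrays. Gaa rose by 1.76, 1.96 and 2.06 at days 7, 14 and 28 (SE 0.31; adjusted p = 0.00186, 0.000810 and 0.000970). Arsb, a sulfatase of dermatan and chondroitin sulfate, had the largest mean difference of these enzymes. Arsb had levels of 0.85, -1.23 and -1.73 at day 0, 0.81, 0.57 and 1.02 at day 7, 1.94, 1.91 and 1.999 at day 14 and 0.99, 1.01 and 1.05 at day 28. At day 7 the arrays overlapped day 0, since day 0 replicate 1 lay within them, and at days 14 and 28 they did not. Arsb rose by 1.50, 2.65 and 1.72 at days 7, 14 and 28 (SE 0.52; adjusted p = 0.0464, 0.00275 and 0.0269). The day 7 call was lost without any single array other than day 0 replicate 1 (0.99 to 1.62, adjusted p = 0.0633 to 0.135) and the day 28 call without day 0 replicate 2 or 3 or day 28 replicate 1, 2 or 3 (1.21 to 1.73, adjusted p = 0.0664 to 0.0845).

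Hexa and Neu1 encode a hexosaminidase subunit and a neuraminidase. Hexa had levels of 3.47, 3.05 and 2.44 at day 0, 4.11, 4.07 and 4.05 at day 7, 4.20, 4.36 and 4.36 at day 14 and 4.38, 4.38 and 4.31 at day 28, with the graft arrays above day 0. Hexa rose by 1.09, 1.32 and 1.36 at days 7, 14 and 28 (SE 0.23; adjusted p = 0.00520, 0.00154 and 0.00179). Neu1 had levels of 1.39, 0.85 and 1.27 at day 0, 1.77, 1.86 and 2.07 at day 7, 1.83, 1.61 and 1.95 at day 14 and 1.99, 2.01 and 1.99 at day 28. All graft arrays lay above day 0. Neu1 rose by 0.73, 0.63 and 0.82 at days 7, 14 and 28 (SE 0.18; adjusted p = 0.0128, 0.0225 and 0.00737). The call of Neu1 at day 14 was lost without day 0 replicate 2 or day 14 replicate 1 or 3 (0.47 to 0.61, adjusted p = 0.0635 to 0.0864). Man2b1, the acid alpha-mannosidase, was called at day 7 (0.96 ± 0.28, adjusted p = 0.0241) and day 14 (1.07 ± 0.28, adjusted p = 0.0126), with the day 7 call lost without day 0 replicate 2 or 3 or day 7 replicate 3 (0.70 to 0.90). Gla, alpha-galactosidase A, had differences of 0.55, 0.87 and 0.76 and was not called. Glb1, the beta-galactosidase, was dim: on the day 0 arrays it was well above background on 1 of 3. Glb1 had levels of -6.38, -6.61 and -4.88 at day 0, -5.51, -5.54 and -5.05 at day 7, -5.02, -5.01 and -4.97 at day 14 and -6.19, -5.86 and -6.24 at day 28. Day 0 replicate 3, an array with many non-uniform spots, was higher than every other array. Glb1 had differences of 0.59, 0.95 and -0.14 and was not called. With both arrays of many non-uniform spots left out it was called at day 7 (0.97, adjusted p = 0.00292) and day 14 (1.49, adjusted p = 0.000152), with 0.40 at day 28. The day 0 values were then those of replicates 1 and 2, on which Glb1 was not well above background. These sizes and p-values therefore rest on day 0 readings too dim to be relied on.

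Among genes of lipid handling 4 of 6 rose at day 7 (17.7% of all probes), 5 at day 14 (20.1%) and 4 at day 28 (17.4%). Ppt1 encodes the thioesterase that strips palmitate from proteins. Ppt1 had levels of 1.26, 1.43 and 0.89 at day 0, 3.14, 3.21 and 2.71 at day 7, 3.91, 3.86 and 4.16 at day 14 and 3.02, 2.99 and 3.08 at day 28. The day 14 arrays lay above all others, and those of days 7 and 28 lay together between them and day 0. Ppt1 rose by 1.83, 2.78 and 1.84 at days 7, 14 and 28 (SE 0.20; adjusted p = 0.000118, 8.34e-06 and 0.000170). Calls between graft days depended on the fit. With only the arrays compared, 19 of the 38 genes were called between days 28 and 14 (30.2% of all probes) and 1 between days 14 and 7 (3.79%). With array weights the counts were 30 (78%) and 25 (50.6%). In the unweighted fit of all 12 arrays, whose spread is shared by all days, Ppt1 was the only one of the 38 genes called between graft days. It stood 0.96 ± 0.20 higher at day 14 than at day 7 (adjusted p = 0.0285; 3.26% of all probes called) and fell by 0.95 ± 0.20 at day 28 relative to day 14 (adjusted p = 0.0280; 4.48% of all probes called). Each of these 2 calls held in 14 of 24 alternatives. The first was lost without day 7 replicate 1 or 2, day 14 replicate 1, 2 or 3 or day 28 replicate 1 (0.86 to 1.05, adjusted p = 0.0617 to 0.138). The second was lost without any single array other than day 0 replicate 1, 2 and 3 and day 7 replicate 2 and 3 (sizes 0.85 to 1.00, adjusted p = 0.0531 to 0.125). On the slide with day 7 and day 14 arrays its difference was 0.89, and on the slide with days 14 and 28 it was -1.004. Over the 38 genes the median difference was 0.27 between days 14 and 7, with 6 genes at an unadjusted p under 0.05, and all tested probes had a median of 0.05 with 15.6% at such a p. Between days 28 and 14 it was -0.35, with 11 such genes, against -0.08 and 22.9% for all probes. On the shared slides these medians were 0.25 and -0.41. Between days 28 and 7, 0 of the 38 genes were called (1 at an unadjusted p under 0.05; 1.78% of all probes called, 17.4% at an unadjusted p under 0.05).

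Npc2 encodes the soluble carrier that takes cholesterol out of the lysosome, together with Npc1. Npc2 had levels of 4.30, 3.65 and 4.06 at day 0, 5.70, 5.94 and 5.81 at day 7, 6.03, 5.76 and 6.18 at day 14 and 5.95, 5.81 and 6.04 at day 28, with the graft days alike and all above day 0. Npc2 rose by 1.81, 1.98 and 1.93 at days 7, 14 and 28 (SE 0.20; adjusted p = 0.000128, 6.12e-05 and 0.000138). Lipa, the acid lipase that frees cholesterol from its esters, had levels of 2.48, 2.23 and 2.66 at day 0, 4.03, 3.98 and 4.74 at day 7, 4.53, 4.56 and 4.62 at day 14 and 3.85, 3.85 and 3.82 at day 28. Lipa stood apart from day 0 on all graft arrays. Lipa rose by 1.79, 2.11 and 1.38 at days 7, 14 and 28 (SE 0.22; adjusted p = 0.000217, 6.46e-05 and 0.00121). Psap encodes prosaposin, the precursor of the saposins that assist sphingolipid breakdown. Psap had levels of 3.995, 4.42 and 3.27 at day 0, 5.88, 5.69 and 5.90 at day 7, 5.76, 4.20 and 6.15 at day 14 and 5.56, 5.34 and 5.78 at day 28. Day 14 replicate 2 lay below day 0 replicate 2, and the other graft arrays lay above all of day 0. Psap rose by 1.93, 1.48 and 1.67 at days 7, 14 and 28 (SE 0.45; adjusted p = 0.00866, 0.0265 and 0.0175). Its day 14 call was lost without day 0 replicate 3 or day 14 replicate 1 or 3 (1.09 to 1.28, adjusted p = 0.0835 to 0.105), and its day 28 call without day 0 replicate 3 or day 28 replicate 1 or 3 (1.36 to 1.67, adjusted p = 0.0527 to 0.0562).

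The 2 enzymes of ceramide metabolism moved less. Asah1, acid ceramidase, rose at day 14 (1.16 ± 0.37, adjusted p = 0.0315), a call lost without day 0 replicate 3 or day 14 replicate 1 or 3 (0.87 to 1.18, adjusted p = 0.0766 to 0.113), and had differences of 0.16 and 0.90 at days 7 and 28. Smpd1, acid sphingomyelinase, had levels of 3.16, 3.06 and 2.51 at day 0, 3.05, 3.31 and 2.32 at day 7, 2.60, 2.69 and 2.67 at day 14 and 3.38, 3.48 and 3.28 at day 28. The day 14 arrays were within the range of day 0, day 7 overlapped it, and day 28 lay above it. Smpd1 had differences of -0.02, -0.26 and 0.47 and was not called at any day. With those 2 arrays of many non-uniform spots left out it was called lower at day 14 (-0.46, adjusted p = 0.0238).

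Of the membrane proteins and progranulin 3 of 5 rose at day 7 (17.7% of all probes), 4 at day 14 (20.1%) and 3 at day 28 (17.4%). Grn encodes progranulin, a growth factor-like protein that is delivered to lysosomes. Grn had levels of 4.25, 2.66 and 1.59 at day 0, 5.28, 4.94 and 5.33 at day 7, 5.32, 5.46 and 5.48 at day 14 and 5.02, 4.93 and 5.01 at day 28. Day 0 replicate 1 stood well above the other day 0 arrays and still below every graft array. Grn rose by 2.35, 2.59 and 2.15 at days 7, 14 and 28 (SE 0.50; adjusted p = 0.00552, 0.00278 and 0.00897), and its second probe gave 2.36, 2.58 and 2.12. Scarb2, the receptor that carries glucocerebrosidase to lysosomes, had levels of 0.27, -0.35 and -0.13 at day 0, 0.90, 1.04 and 1.05 at day 7, 0.56, 0.42 and 0.67 at day 14 and 0.72, 0.40 and 1.09 at day 28, all higher than day 0 in the graft. Scarb2 rose by 1.06, 0.62 and 0.81 at days 7, 14 and 28 (SE 0.22; adjusted p = 0.00450, 0.0480 and 0.0177). Its day 14 call was lost without any single array other than day 0 replicate 1, day 7 replicate 3 and day 28 replicate 2 and 3 (0.48 to 0.68, adjusted p = 0.0634 to 0.141) and its day 28 call without day 0 replicate 2 or day 28 replicate 1 or 3 (0.63 to 0.82, adjusted p = 0.0554 to 0.0659).

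Cd63 encodes a tetraspanin of late endosomes and lysosomes. Cd63 had levels of 5.93, 5.72 and 5.63 at day 0, 6.23, 6.13 and 6.64 at day 7, 6.66, 6.53 and 6.70 at day 14 and 6.32, 6.16 and 6.40 at day 28. The graft arrays were above day 0 by a small margin. Cd63 rose by 0.57, 0.87 and 0.53 at days 7, 14 and 28 (SE 0.18; adjusted p = 0.0329, 0.00386 and 0.0438). The day 7 call was lost without day 0 replicate 2 or 3, day 7 replicate 1 or 3, day 14 replicate 1 or day 28 replicate 1 (0.42 to 0.62, adjusted p = 0.0554 to 0.08) and the day 28 call without any single array other than day 0 replicate 1 and day 7 replicate 2 and 3 (0.46 to 0.60, adjusted p = 0.0595 to 0.124). Lamp2, a major glycoprotein of the lysosomal membrane, rose at day 14 (1.26 ± 0.31, adjusted p = 0.00939) and had differences of 0.64 and 0.65 at days 7 and 28. Mcoln1, the calcium channel of the lysosomal membrane, had levels of -0.10, -0.55 and 0.11 at day 0, -0.01, 0.09 and 0.06 at day 7, -0.30, -0.38 and -0.21 at day 14 and 0.14, 0.22 and 0.10 at day 28. Day 0 overlapped each graft day. Mcoln1 had differences of 0.23, -0.12 and 0.33 and was not called.

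Tfeb, the regulator on the list, was called at no graft day. Tfeb had levels of 3.98, 3.86 and 5.49 at day 0, 3.72, 3.41 and 5.07 at day 7, 3.91, 4.02 and 3.76 at day 14 and 3.47, 3.35 and 3.57 at day 28. Day 0 replicate 3 and day 7 replicate 3, the arrays with many non-uniform spots, were the highest, and the day 28 arrays lay below all of day 0. Tfeb had differences of -0.38, -0.55 and -0.98 (SE 0.48) and was not called, with intervals of -1.44 to 0.68 at day 7, -1.61 to 0.51 at day 14 and -2.04 to 0.08 at day 28 at the 95% level. Without those 2 arrays the differences were -0.36, -0.02 and -0.46, and the last was called lower (adjusted p = 0.0403).

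Among 9 measured proton pump genes of the list 4 rose at day 7 (17.7% of all probes), 5 at day 14 (20.1%) and 4 at day 28 (17.4%). Atp6v1a and Atp6v1b2 encode the catalytic A subunit and the B subunit of the V1 sector. Atp6v1b2 had levels of 1.62, 0.76 and 1.48 at day 0, 2.88, 2.88 and 3.58 at day 7, 3.44, 3.06 and 3.39 at day 14 and 2.73, 2.56 and 2.92 at day 28. The groups were apart at each day. Atp6v1b2 rose by 1.83, 2.01 and 1.45 at days 7, 14 and 28 (SE 0.27; adjusted p = 0.000773, 0.000338 and 0.00307). Atp6v1a had levels of 0.90, 0.56 and 0.36 at day 0, 1.89, 1.81 and 1.94 at day 7, 2.44, 2.12 and 2.51 at day 14 and 1.86, 1.88 and 1.86 at day 28, with days 7 and 28 alike in mean and day 14 higher. Atp6v1a rose by 1.28, 1.75 and 1.26 at days 7, 14 and 28 (SE 0.18; adjusted p = 0.000558, 6.71e-05 and 0.000754). Atp6ap1, an accessory subunit used in assembly, had levels of 3.43, 3.09 and 2.75 at day 0, 3.86, 3.69 and 3.91 at day 7, 4.07, 4.25 and 4.14 at day 14 and 3.76, 3.64 and 3.92 at day 28. Every graft array was above day 0. Atp6ap1 rose by 0.73, 1.06 and 0.68 at days 7, 14 and 28 (SE 0.19; adjusted p = 0.0151, 0.00183 and 0.0204). Its day 7 call was lost without day 7 replicate 1 (0.71, adjusted p = 0.0535) and its day 28 call without day 28 replicate 1 or 3 (0.69 and 0.61, adjusted p = 0.0644 and 0.069).

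Other subunits of the list were called at fewer days or none. Atp6v0c, the proteolipid of the rotor ring, rose at day 7 (0.93 ± 0.21, adjusted p = 0.00747) and day 14 (0.63 ± 0.21, adjusted p = 0.0386). Both calls were lost with normexp and with only the arrays compared. The day 14 call was also lost without any single array other than day 0 replicate 3 and day 7 replicate 2 and 3 (adjusted p = 0.0532 to 0.116). Atp6v1c1, of the V1 stator, was called at day 14 (1.20 ± 0.28, adjusted p = 0.00774) and had differences of 0.48 and 0.30 at days 7 and 28. Atp6v1h, which regulates ATP hydrolysis, was called at day 28 (0.58 ± 0.17, adjusted p = 0.0226) and had differences of 0.26 at day 7 and 0.41 at day 14 (adjusted p = 0.259 and 0.078), with the arrays of all 3 graft days above day 0. The call was lost without day 28 replicate 1 or 2 (0.56 and 0.48). Atp6v1d, of the central rotor shaft, had levels of 2.995, 3.30 and 3.13 at day 0, 3.16, 3.15 and 3.59 at day 7, 3.36, 3.33 and 3.53 at day 14 and 3.31, 3.29 and 3.42 at day 28. Day 0 overlapped days 7 and 28. Atp6v1d had differences of 0.16, 0.26 and 0.20 and was not called.

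Several pump subunits are encoded by more than one gene, and the alternatives within a pair gave different values. Atp6v0d2 encodes the d subunit form known from osteoclasts and macrophages, and Atp6v0d1 the form found in most cells. Atp6v0d2 had levels of -4.58, -3.97 and -3.82 at day 0, 1.26, 1.47 and 0.61 at day 7, 2.76, 2.05 and 3.07 at day 14 and 1.43, 1.55 and 1.33 at day 28. Every graft array lay far above the 3 day 0 arrays. Atp6v0d2 rose by 5.24, 6.75 and 5.56 at days 7, 14 and 28 (SE 0.32; adjusted p = 4.77e-06, 8.68e-07 and 5.25e-06), or 37.7, 108 and 47.2-fold. Atp6v0d1 had levels of 2.90, 2.56 and 1.31 at day 0, 2.80, 2.71 and 2.30 at day 7, 2.89, 2.98 and 2.97 at day 14 and 2.54, 2.57 and 2.63 at day 28. Day 0 overlapped all graft days, with day 0 replicate 3 the lowest array. Atp6v0d1 had differences of 0.34, 0.69 and 0.32 (SE 0.34) and was not called. The difference between the 2 genes of a pair was not tested.

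Tcirg1 encodes the a3 subunit of osteoclast and macrophage lysosomes, and Atp6v0a1 the a1 form. Tcirg1 had levels of 1.17, 0.65 and -1.07 at day 0, 2.44, 1.99 and 1.87 at day 7, 3.22, 3.29 and 3.41 at day 14 and 2.07, 1.77 and 2.47 at day 28, with the graft arrays above day 0. Tcirg1 rose by 1.85, 3.06 and 1.85 at days 7, 14 and 28 (SE 0.47; adjusted p = 0.0130, 0.000726 and 0.0132). Without day 0 replicate 3 it was 1.19 higher at days 7 and 28, both still called. Its day 7 call was lost without day 7 replicate 1 (1.68, adjusted p = 0.051). Atp6v0a1 had levels of 2.71, 1.96 and 1.59 at day 0, 2.32, 2.14 and 2.65 at day 7, 2.27, 2.26 and 2.44 at day 14 and 2.29, 2.26 and 2.44 at day 28, and day 0 overlapped each graft day. Atp6v0a1 had differences of 0.28, 0.24 and 0.25 (SE 0.27) and was not called. Atp6v1b1, the B subunit gene of kidney and other specialised epithelia, was well above background on 0 of 12 arrays and was not tested, while its counterpart Atp6v1b2 rose.

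Over both lists of pump genes, 9 V0 and 9 V1 subunits were measured. Of the V0 genes 5 rose at day 7, 5 at day 14 and 3 at day 28, and 0 fell. Of the V1 genes 4, 5 and 5 rose and 1 fell at each day. Among the pump genes beyond the 44, 10 were tested, 6 rose at days 7 and 14 and 5 at day 28, and 1 fell at each day. Beside all these counts, 17.4% to 20.1% of all probes were called higher and 15.4% to 17.4% lower. Atp6v0b, another proteolipid subunit, rose by 2.06, 2.28 and 1.52 (SE 0.24; adjusted p from 7.09e-05 to 0.00119), and with normexp its calls at days 14 and 28 were lost (0.95 and 0.43). Atp6v1g2, the G subunit form known from neurons, fell by 2.01 ± 0.65 at day 7 (adjusted p = 0.0360), by 2.89 ± 0.65 at day 14 (adjusted p = 0.00581) and by 3.27 ± 0.65 at day 28 (adjusted p = 0.00387). The day 7 call was lost without day 0 replicate 3, day 7 replicate 1 or 2, day 14 replicate 1 or day 28 replicate 1 or 2 (sizes 1.30 to 2.01, adjusted p = 0.0509 to 0.123).

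**Figure D4:**
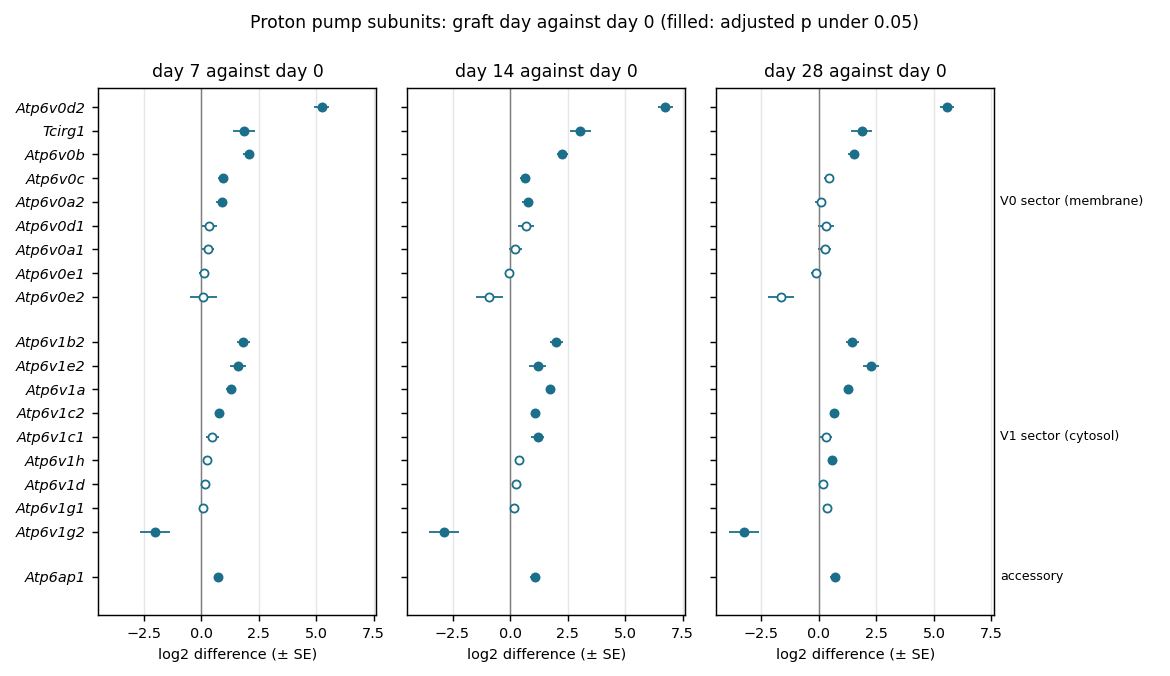
Log2 difference between each graft day and day 0 (points, with bars of 1 SE, 3 arrays a day) for 19 measured genes of the V-type ATPase, by sector, with filled points for adjusted p under 0.05. Atp6v0d2 lies far to the right at 5.24, 6.75 and 5.56, and Atp6v1g2 lies to the left. Atp6v0d1 and Atp6v0a1 lie to the right of 0 at all 3 days, with open points.

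Lysosomal genes beyond the 44 were read from lists written for this comparison. Of 21 other measured hydrolases 14 rose at day 7, 18 at day 14 and 14 at day 28, and 0 fell. Among all probes 17.4% to 20.1% were called higher and 15.4% to 17.4% lower. Gm2a, the activator protein of ganglioside breakdown, rose by 3.54, 4.43 and 3.02 (SE 0.35; adjusted p from 1.52e-05 to 0.000247). Galc, galactosylceramidase, rose by 2.80, 3.93 and 2.71 (SE 0.34; adjusted p from 2.41e-05 to 0.000353). Ctsk, cathepsin K, the collagen-degrading protease of osteoclasts, rose by 2.57, 2.79 and 2.91 (SE 0.40; adjusted p from 0.000477 to 0.00101), and Ctsw, a cathepsin of cytotoxic lymphocytes, rose by 2.81, 3.51 and 1.94 (SE 0.33; adjusted p from 4.23e-05 to 0.00188). With normexp the day 28 call of Ctsw was lost (0.81, adjusted p = 0.156).

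Other lysosomal membrane proteins moved both ways. Of 17 measured, 10 rose and 3 fell at day 7, 10 rose and 3 fell at day 14, and 10 rose and 2 fell at day 28. Among all probes 17.4% to 20.1% were called higher and 15.4% to 17.4% lower. Slc11a1, a metal transporter of phagosomes, rose by 5.02, 5.44 and 4.63 (SE 0.53; adjusted p from 4.89e-05 to 0.000234), Mcoln3 and Mcoln2, relatives of Mcoln1, rose by 4.39, 5.42 and 4.10 (SE 0.58; adjusted p from 8.68e-05 to 0.000756) and by 3.32, 3.94 and 3.73 (SE 0.63; adjusted p from 0.000936 to 0.00303), and Cd68, the macrophage sialomucin, rose by 4.35, 4.26 and 3.24 (SE 0.66; adjusted p from 0.000993 to 0.00541). Mcoln3 was well above background on 10 of 12 arrays, with 1 of 3 at day 0, and Mcoln2 on 11 of 12. With normexp background correction the differences were 1.78, 2.02 and 1.01 for Mcoln3, with the day 28 call lost (adjusted p = 0.170), and 1.58, 1.46 and 1.28 for Mcoln2, with all 3 calls lost (adjusted p = 0.0522 to 0.121). Those that fell were Clcn7, a chloride-proton exchanger, and Laptm4a at all 3 days, and Laptm4b at days 7 and 14, named after their values were seen.

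Of 8 measured genes that sort enzymes to lysosomes, 2 rose and 1 fell at each day. These counts lay close to the shares of all probes, 17.4% to 20.1% higher and 15.4% to 17.4% lower. Igf2r, the large mannose 6-phosphate receptor, rose by 1.55, 1.36 and 1.31 (SE 0.29; adjusted p from 0.00274 to 0.00690), and Gga2, an adaptor of its transport, rose by 1.59, 1.98 and 1.90 (SE 0.33; adjusted p from 0.00115 to 0.00470). Sort1, the sorting receptor sortilin, had levels of 1.64, 2.03 and 2.18 at day 0, -0.0018, 0.22 and -0.63 at day 7, -0.84, -0.53 and -0.84 at day 14 and 0.12, 0.17 and -0.0034 at day 28. All graft arrays lay below day 0. Sort1 fell by 2.09 ± 0.24, 2.69 ± 0.24 and 1.86 ± 0.24 at days 7, 14 and 28 (adjusted p = 0.000157, 2.99e-05 and 0.000420).

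Of 12 measured regulators 3 rose and 4 fell at day 7, 2 rose and 4 fell at day 14, and 1 rose and 2 fell at day 28. The share that rose was 25%, 16.7% and 8.33%, against 17.7%, 20.1% and 17.4% of all probes. Of all probes 15.4%, 17.4% and 16.5% were called lower. Tfec, a relative of Tfeb that is found in myeloid cells, rose by 1.47 ± 0.35 at day 7 (adjusted p = 0.00949) and by 1.83 ± 0.35 at day 14 (adjusted p = 0.00260), with 0.83 at day 28. Lamtor2 and Lamtor5 belong to the complex that anchors mTORC1 at the lysosome. Lamtor2 fell by 0.99, 0.99 and 0.86, and Lamtor5 fell by 0.74, 0.85 and 1.09, each called at all 3 days. Without day 7 replicate 1 or 2 Lamtor5 lost its day 7 call (-0.64 and -0.63, adjusted p = 0.0713 and 0.0622). Rragd, a GTPase of the same pathway, fell by 1.35 at day 7 (adjusted p = 0.0123) and by 0.97 at day 14 (adjusted p = 0.0466). The day 14 call of Rragd was lost without any single array other than day 0 replicate 1, day 7 replicate 3 and day 28 replicate 2 and 3 (sizes 0.75 to 1.04, adjusted p = 0.0542 to 0.138). With normexp both calls of Rragd were lost (-0.15 and -0.64), and at day 14 the difference was 0.01 with the slide as a fixed block.

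Cathepsin inhibitors also moved both ways. Of 5 measured, 2 rose and 1 fell at day 7, 3 rose and 1 fell at day 14, and 2 rose and 1 fell at day 28. Among all probes 17.4% to 20.1% were called higher and 15.4% to 17.4% lower. Cst6, cystatin E/M, had levels of -3.56, -4.73 and -6.22 at day 0, 1.34, 1.75 and -2.03 at day 7, 1.74, 0.63 and 2.10 at day 14 and 1.91, 2.60 and -0.30 at day 28. Day 0 was dim, with 2 of 3 arrays well above background, and every graft array was brighter. Cst6 rose by 5.19, 6.33 and 6.24 at days 7, 14 and 28 (SE 1.08; adjusted p = 0.00479, 0.00134 and 0.00203). Cst7, cystatin F of immune cells, rose by 4.16, 3.88 and 2.22 (SE 0.53; adjusted p from 0.000301 to 0.00970). Cstb, a cytosolic inhibitor, rose at day 14 (0.97 ± 0.26, adjusted p = 0.0147). Cst3, the secreted cystatin C, had levels of 7.73, 7.54 and 7.22 at day 0, 6.72, 6.89 and 6.44 at day 7, 6.28, 6.28 and 6.40 at day 14 and 6.82, 6.96 and 6.32 at day 28, all lower in the graft than at day 0. Cst3 fell by 0.81 ± 0.22, 1.17 ± 0.22 and 0.80 ± 0.22 at days 7, 14 and 28 (adjusted p = 0.0166, 0.00211 and 0.0182). Its day 28 call was lost without day 28 replicate 3 (-0.60, adjusted p = 0.066). With quantile normalization the differences were -0.48, -0.67 and -0.20 and none was called, and the authors' deposited values gave the same calls.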

How the data were processed

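Total RNA from the veins, freed of ribosomal RNA, was labelled with Cy3 by random and oligo(dT) priming, per the labels' protocols, and hybridised to 1-colour Agilent arrays. Per the file headers, the deposited scanner files hold background-subtracted spot intensities, and Agilent Feature Extraction (version 11.0.1.1) made them. The authors' deposited value table holds log2 values whose column medians are 7.149 to 7.153, and each of its 12 columns correlated best with its own array (r = 0.9983 to 0.9995). All 12 columns had the same maximum. How those values were normalized is not given in the sources used here. With equal maxima and near-equal medians, they may not be a check separate from the quantile alternative.

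Here log2 intensities minus the 75th percentile of each array were used, after 1417 control spots an array and 7348 outlier spots in all had been left out. The 75th percentile was 494 to 991 intensity units, and 0 gene spots were saturated. Probes were tested where at least 3 of the 12 arrays were well above background (21063 of 24684 gene probes). Of the gene probes 14294 had 1 symbol and 10390 none, assigned through RefSeq accessions from a table of the GRCr8 assembly used for names, since the headers annotate the array design on rn4. Promoter windows are RefSeq's on GRCr8.

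Group means of the 4 days were fitted to all 12 arrays with limma 3.58.1 (R 4.3.3; 8 residual and 2.32 prior degrees of freedom), and every p-value, also in the alternatives, was adjusted by the Benjamini-Hochberg method over all tested probes. The limma script was tested on simulated data. Summaries used Python 3.11.15, NumPy 2.4.6, pandas 2.3.3, SciPy 1.17.1 and Matplotlib 3.10.9. Groups are the days of the labels, and replicate numbers follow deposition order and pair nothing. The 44 genes and all lists were chosen with earlier results of these data known. Values on every array are given for genes of the 44 called at all 3 graft days or with the largest or smallest mean difference of their role, for isoform pairs of the pump and for some genes of other lists. Other lists name at most the 4 called genes of largest mean difference, with any exception stated. The normexp alternative used the median spot signal with the median background, since the files have no mean signal.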

Additional observations from a re-analysis of the deposited data

Results flagged for a closer look

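These values concern differences between graft days, each tested in the same limma fit with Benjamini-Hochberg adjustment over all tested probes. With 3 arrays a day no single array was tested for standing apart from its group. Ppt1 was 0.96 ± 0.20 (SE) higher at day 14 than at day 7 (adjusted p = 0.0285) and 0.95 lower at day 28 than at day 14 (-0.95 ± 0.20, adjusted p = 0.0280). Atp6v0d2 was 1.51 ± 0.32 higher at day 14 than at day 7 (adjusted p = 0.0296). Gm2a fell by 1.41 ± 0.35 at day 28 relative to day 14 (-1.41, adjusted p = 0.0498). Ctsw fell by 1.57 ± 0.33 over the same interval (-1.57, adjusted p = 0.0283). Of 21 other measured hydrolases, Gm2a and Ctsw among them, 4 were called lower at day 28 than at day 14. Of all probes 3.26% were called between days 14 and 7 and 4.48% between days 28 and 14. Without a single array of day 14 or day 28 the latter share was 0.774% to 2.39%.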

How the results depend on the processing

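The 38 lysosomal genes had 72 calls against day 0 over the 3 days, all higher, of which 0 changed sign under the 24 alternatives, and the median differences without single arrays were 0.68 to 0.96 at day 7, 0.96 to 1.27 at day 14 and 0.63 to 1.00 at day 28. The number of calls depended more on the settings. All 72 calls were kept under quantile normalization, the authors' deposited values, the stricter filter on dim probes and the mean of a gene's probes, 68 without a filter, 66 with the slide as a random block, 69 with array weights, 64 without the arrays of many non-uniform spots, 47 with normexp, 47 with only the arrays compared, 10 with the slide as a fixed block, 8 with that block and day 0 replicate 3 joined to the other day 0 slide (chosen after seeing the data) and 58 to 71 without single arrays. The causes were not tested. The fit of only the arrays compared has fewer arrays and takes its spread from those arrays alone.

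Against day 0, normexp gave 13 calls at day 7 and 14 at day 28, all higher, against 8.92% and 7% of all probes higher. The day 7 calls lost with it were those of Arsb, Atp6ap1, Atp6v0c, Cd63, Ctsb, Ctsd, Ctsh, Hexa, Man2b1, Neu1 and Tpp1. At day 14 Atp6v0c, Cd63, Man2b1, Neu1, Psap and Scarb2 lost theirs. At day 28 Atp6ap1, Atp6v1h, Cd63, Ctsa, Ctsb, Ctsc, Neu1 and Scarb2 did. The fit of only the arrays compared gave 12 calls at day 7 and 14 at day 28, all higher, against 7.71% and 11.1% of all probes higher. The fixed block gave 0, 6 and 4 at days 7, 14 and 28, and the joined block gave 0, 4 and 4, with 0 between days 14 and 7 and 0 between days 28 and 14. Counts without single arrays were 18 to 27 at day 7, 21 to 29 at day 14 and 14 to 26 at day 28. Normexp moved the median of all tested probes at day 7 to 0.44 and at day 28 to -0.16, beside medians of 0.74 and 0.76 for the 38 genes. Between days 14 and 7 the count was 0 with normexp, 0 with the fixed block, 25 with array weights (50.6% of all probes), 5 without the arrays of many non-uniform spots (11.5%) and 0 to 2 without single arrays. Between days 28 and 14 it was 0 with normexp, 0 with the fixed block, 3 with quantile normalization, 3 with the deposited values, 19 with only the arrays compared (30.2%), 30 with array weights (78% of all probes), 11 without the arrays of many non-uniform spots (22.8%) and 0 to 5 without single arrays. Between days 28 and 7 it was 21 with array weights (63.8% of all probes).

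Direction changed mostly in values that were not called. With the slide as a fixed block the differences were -0.042 for Ctsa at day 14, -0.13 for Ctsl, -0.015 for Atp6v1h, -0.35 for Asah1 and 0.28 for Tfeb at day 7, 0.12 for Tfeb at day 14, and 0.25 for Glb1 and -0.10 for Atp6v0d1 at day 28. Rragd, called lower at day 14, was then 0.014 at day 14 and 0.23 at day 28. With the joined block the differences were -0.0049 for Ctsa at day 14, -0.075 for Ctsl, -0.030 for Atp6v1h and -0.060 for Asah1 at day 7, and 0.076 and 0.29 for Rragd at days 14 and 28. Without the arrays of many non-uniform spots they were 0.40 for Glb1 at day 28, 0.027 for Mcoln1 at day 14, 0.068 for Smpd1 at day 7, -0.15 for Atp6v0d1 at day 28, and -0.10, -0.011 and -0.0017 for Atp6v0a1 at days 7, 14 and 28. With array weights they were 0.17 for Glb1 at day 28, 0.059 for Mcoln1 at day 14, -0.036 for Atp6v1d and 0.044 for Smpd1 at day 7. At day 7 Atp6v1d was -0.049 with normexp, and Smpd1 was 0.10 with quantile normalization and 0.079 with the deposited values. Without single arrays the ranges were -0.091 to 0.25 for Ctsa, -0.31 to 0.027 for Mcoln1 and -0.011 to 0.55 for Atp6v0a1 at day 14. At day 28 they were -0.47 to 0.40 for Glb1, -0.0017 to 0.56 for Atp6v0a1 and -0.15 to 0.65 for Atp6v0d1. At day 7 they were -0.13 to 0.67 for Atp6v0d1, -0.88 to 0.15 for Tfeb, -0.14 to 0.58 for Asah1 and -0.23 to 0.27 for Smpd1.

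No paired analysis was possible because the labels give every array the replicate number 1 and do not say that the sample codes in the titles pair arrays of different days. The 3 arrays a day limit what can be detected, and low signal over background limits Glb1.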
